A study of Mus musculus with 10 samples.

Results

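Endothelial G protein-coupled receptors are the receptors by which vessel-lining cells read lipids and peptides in blood and tissue. Here they are 9 genes chosen by symbol for known roles in endothelium, out of 24470 gene entries counted in cultured mouse testes: S1pr1, S1pr3, Aplnr, Ednrb, Calcrl, Adgrl4 and Adgrf5 encode receptors, while Apln encodes a peptide ligand and Ramp2 a coreceptor, so that 7 of the 9 are receptors in the strict sense. All 9 symbols were found, each in 1 entry, and all 9 passed the filter on low counts that left 13941 genes to test.

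The testes came from C57BL/6 embryos at E12.5. Gonads with their mesonephros were explanted from 5 embryos (M1 to M5), and of each pair one gonad received 75 µM GPI, an inhibitor of glycogen phosphorylase, the enzyme that mobilizes glycogen, and its partner DMSO, the vehicle. After 48 h the mesonephros was cut away and RNA of the whole gonad was sequenced, 1 library per gonad, 10 in all. Libraries held 10203679 to 15590223 counts with vehicle (median 11114376) and 11025409 to 15635322 with GPI (median 11691690).

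Sphingosine 1-phosphate, apelin, endothelins and adrenomedullin are short-range signals that guide vessel sprouting, tone and barrier function, acting through heptahelical receptors. Adhesion receptors of the ADGR family carry long extracellular domains, and Adgrl4 and Adgrf5 are their best known endothelial representatives. In the fetal testis, endothelial cells migrate in from the mesonephros and help partition the tissue into cords, and several of these receptors are also used outside endothelium, for example Ednrb in neural crest derivatives.

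Values below are CPM (counts per 10⁶ library counts), computed with library sizes scaled by edgeR's TMM method. A gene was called when edgeR's quasi-likelihood test, with the embryo as a block and Benjamini-Hochberg adjustment over all 13941 tested genes, gave an adjusted p under 0.05.

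**Figure D1:**
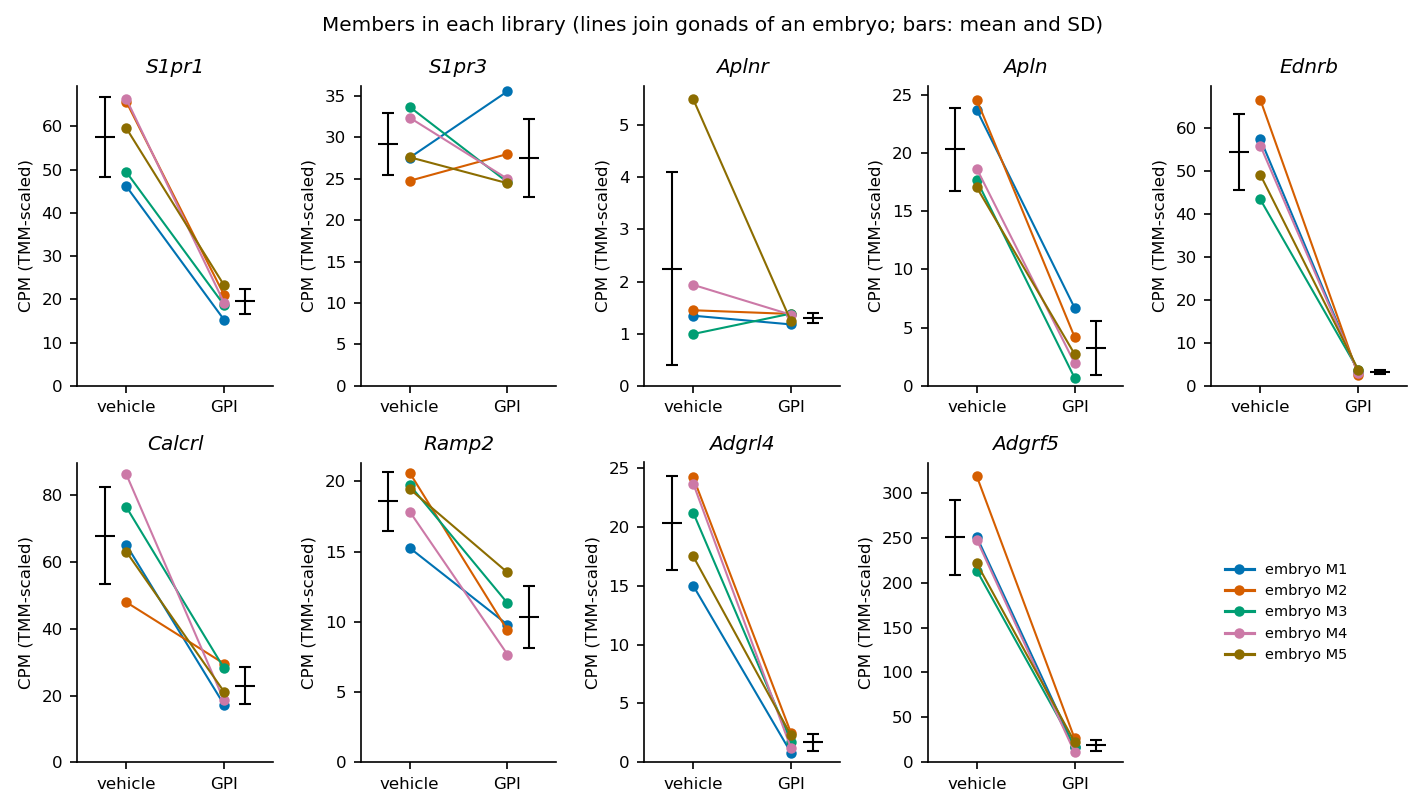
Level of each of the 9 genes in every library, in CPM on linear axes starting at 0, with vehicle on the left and GPI on the right of each panel. Lines join the 2 gonads of an embryo, and black bars are the mean and SD of 5 libraries; groups overlap in the panels of S1pr3 and Aplnr alone.

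S1pr1 encodes the Gi-coupled receptor through which sphingosine 1-phosphate steadies vessel junctions and restrains sprouting (Entrez Gene 13609, mm10 chromosome 3 from 115710433 to 115715055). Its level with vehicle was 46.2 CPM in M1, 65.8 in M2, 49.5 in M3, 66.4 in M4 and 59.7 in M5, and with GPI 15.3, 21.1, 18.7, 19.3 and 23.3 CPM in the same order. The highest GPI library, M5, was below the lowest vehicle library, M1, so the groups did not overlap. The group means were 57.5 ± 9.27 CPM (SD, n = 5) with vehicle and 19.5 ± 2.96 CPM (SD, n = 5) after GPI. This is a log2 fold change of -1.55 with a standard error of 0.10 and leaves 34.1% of the vehicle level (lower in 5 of 5 embryos, quasi-likelihood test of edgeR, Benjamini-Hochberg adjusted p = 3.45e-08). In RNA of a whole gonad, fewer endothelial cells and less of a transcript per cell cannot be told apart. Per embryo the log2 ratio ran from -1.78 in M4 to -1.35 in M5, a narrow range beside those of the other called genes.

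S1pr3 binds the same lipid but also couples to Gq and G12/13, and is used by smooth muscle and stromal cells as well as endothelium (Entrez Gene 13610, chromosome 13 from 51408618 to 51422797). It stood at 27.6, 24.8, 33.7, 32.4 and 27.6 CPM in the vehicle libraries of M1 to M5 and at 35.6, 28.0, 24.6, 25.0 and 24.5 CPM in the GPI libraries. The groups overlapped, with the GPI gonad higher in M1 and M2 and lower in M3, M4 and M5. The log2 fold change was -0.09 (standard error 0.13), smaller than the spread between embryos, and was not called (Benjamini-Hochberg adjusted p = 0.677, quasi-likelihood test of edgeR). In GENCODE M21, 45 exonic bases of S1pr3 are shared with Gm32834 on the other strand, and the counting ignored strand, so a part of its counts cannot be assigned.

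Around these receptors, 13 genes that make, export, carry, break down or receive sphingosine 1-phosphate were examined, and of the 10 tested ones 1 was called lower and 4 higher, with a median log2 fold change of 0.24. The kinases that make the lipid, Sphk1 and Sphk2, were both called higher: Sphk1 had 5.59 ± 1.46 CPM (SD, n = 5) with vehicle and 10.4 ± 2.77 CPM (SD, n = 5) after GPI, and so a log2 fold change of 0.88 (higher in 5 of 5 embryos, quasi-likelihood test of edgeR, Benjamini-Hochberg adjusted p = 0.00918), and Sphk2 a log2 fold change of 0.53. Sphk2 overlaps Dbp on the other strand. The phosphatases divided, with log2 fold changes of 0.55 for Plpp3 and 0.32 for Sgpp1, both called higher, and -0.76 for Plpp1, called lower; Plpp1 overlaps Mtrex on the other strand. Of these calls 3 were less stable than that of S1pr1: the adjusted p from edgeR was 0.0559 without M4 for Sphk1, 0.0506 without M1 and 0.0963 without M3 for Sphk2, and 0.0596 without M2 and 0.153 without M3 for Sgpp1.

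Spns2, the exporter that releases the lipid from endothelial cells, had 1.78 ± 0.620 CPM (SD, n = 5) with vehicle and 0.691 ± 0.322 CPM (SD, n = 5) with GPI, lower in 4 of 5 embryos and not called (log2 fold change -1.34, Benjamini-Hochberg adjusted p = 0.0539, quasi-likelihood test of edgeR); it was called without M2 (adjusted p = 0.0175), without the replicate block (0.0273) and with total counts (0.0448). S1pr2, another tested receptor, was not called, at 9.14 ± 1.28 CPM (SD, n = 5) with vehicle and 8.83 ± 0.675 CPM (SD, n = 5) with GPI. Per kilobase of the longest transcript, S1pr1 was the most abundant tested receptor of the lipid with vehicle, at 18.9 CPM per kb against 6.54 for S1pr3 and 1.43 for S1pr2. With GPI the levels of S1pr1 and S1pr3, 6.42 and 6.17 CPM per kb, were within their SDs of each other. S1pr4 and S1pr5 were left out by the filter, at 0 to 2 and 0 to 25 counts per library.

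Apln encodes apelin, a peptide released by sprouting endothelial tip cells (Entrez Gene 30878, chromosome X from 48025146 to 48034852). With vehicle it was at 23.7, 24.6, 17.6, 18.6 and 17.0 CPM in M1 to M5, and with GPI at 6.71, 4.21, 0.694, 1.96 and 2.74 CPM. All GPI libraries were below all vehicle libraries, and among GPI libraries M1 was the highest and M3, with 9 counts, the lowest. The means of 20.3 ± 3.54 CPM (SD, n = 5) and 3.26 ± 2.31 CPM (SD, n = 5) correspond to a log2 fold change of -2.80 ± 0.30 (± standard error; lower in 5 of 5 embryos, quasi-likelihood test of edgeR, Benjamini-Hochberg adjusted p = 6.58e-05). Per embryo the log2 ratio ran from -4.38 in M3 to -1.79 in M1, the widest range of the 7 called genes.

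Aplnr, the receptor for apelin, marks venous and sprouting endothelium and was the scarcest of the 9 genes (Entrez Gene 23796, chromosome 2 from 85136360 to 85139923). Vehicle libraries of M1 to M5 had 1.35, 1.45, 0.996, 1.94 and 5.50 CPM, and GPI libraries 1.18, 1.38, 1.39, 1.36 and 1.24 CPM. Apart from the vehicle library of M5, which held 89 counts against 11 to 24 in the rest of its group, the groups overlapped. The gene was lower in 4 of 5 embryos but was not called, with a log2 fold change of -0.53 ± 0.42 (± standard error; Benjamini-Hochberg adjusted p = 0.417, quasi-likelihood test of edgeR). Without M5 the log2 fold change was -0.08. The GPI libraries held 13 to 21 counts of Aplnr each. Apela, the other ligand of the receptor, was left out by the filter, at 0 to 19 counts.

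Ednrb encodes the endothelin receptor that binds all 3 endothelins alike and that endothelial cells use to release vasodilators (Entrez Gene 13618, chromosome 14 from 103814615 to 103844476). With vehicle it reached 57.4, 66.5, 43.4, 55.9 and 49.1 CPM in M1 to M5, and with GPI 3.17, 2.63, 3.70, 3.07 and 3.8 CPM. No GPI library came near the vehicle range, and the GPI libraries lay close together. Mean levels were 54.5 ± 8.79 CPM (SD, n = 5) and 3.27 ± 0.480 CPM (SD, n = 5), so that 6.05% remained, the lowest share among the 9 genes (log2 fold change -4.05, standard error 0.16, lower in 5 of 5 embryos, quasi-likelihood test of edgeR, Benjamini-Hochberg adjusted p = 1.19e-10). Because Ednrb is also known from neural crest and glial cells, their markers are given here: of 4 tested, 0 were called lower and 2 higher, and Foxd3 was at 0 in every library. Of 11 tested mural cell markers 7 were called lower, with log2 fold changes of -3.93 for Abcc9 and -4.07 for Kcnj8. The part of either cell type in the result for Ednrb was not tested.

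Of 7 ligand, processing and receptor genes around Aplnr and Ednrb, 4 were tested, 2 called lower and 1 higher, with a median log2 fold change of -0.17. Ednra, the paralogous endothelin receptor of smooth muscle and stroma, fell from 152 ± 14.6 CPM (SD, n = 5) to 96.7 ± 12 CPM (SD, n = 5), a log2 fold change of -0.65 (lower in 5 of 5 embryos, quasi-likelihood test of edgeR, Benjamini-Hochberg adjusted p = 4.82e-05). Per kilobase, Ednra exceeded Ednrb with vehicle, at 41.9 against 13.3 CPM per kb, and with GPI, at 26.7 against 0.797. Ece1, the protease that activates endothelin precursors, fell by 0.49 on the log2 scale, in 5 of 5 embryos. Edn1, the endothelin of endothelial cells, was not called, at 23.8 ± 3.57 CPM (SD, n = 5) with vehicle and 25.9 ± 0.754 CPM (SD, n = 5) with GPI. Edn3 was called higher, with a log2 fold change of 1.16 (Benjamini-Hochberg adjusted p = 0.0172, quasi-likelihood test of edgeR) and in 4 of 5 embryos, but its adjusted p was 0.0561 without M1, 0.0688 without M2, 0.0717 without M3 and 0.0709 without M4. Without M5, whose vehicle library was the highest of its group, Edn3 had a log2 fold change of 1.60 (adjusted p = 0.000297, edgeR). Edn2 and Ece2 were left out by the filter.

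Calcrl encodes the calcitonin receptor-like receptor, which reaches the cell surface and gains its ligand preference only with a RAMP protein at its side (Entrez Gene 54598, chromosome 2 from 84330626 to 84425266). It stood at 65.2, 48.0, 76.5, 86.3 and 63.1 CPM with vehicle in M1 to M5 and at 17.3, 29.6, 28.2, 18.6 and 21.2 CPM with GPI. Groups did not overlap; M2 had both the lowest vehicle and the highest GPI value, and so the smallest difference. The means, 67.8 ± 14.5 CPM (SD, n = 5) and 23.0 ± 5.59 CPM (SD, n = 5), gave a log2 fold change of -1.56 ± 0.19 (± standard error; lower in 5 of 5 embryos, quasi-likelihood test of edgeR, Benjamini-Hochberg adjusted p = 0.000251).

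Ramp2 encodes the coreceptor that turns Calcrl into an adrenomedullin receptor (Entrez Gene 54409, chromosome 11 from 101246334 to 101248250). Vehicle libraries had 15.3, 20.6, 19.7, 17.8 and 19.5 CPM and GPI libraries 9.80, 9.40, 11.3, 7.67 and 13.5 CPM, in the order M1 to M5. The groups did not overlap, although the highest GPI library, M5, came within 2 CPM of the lowest vehicle library, M1. Its log2 fold change of -0.86 (standard error 0.15) was the smallest among the 7 called genes, and 55.1% of the level remained (lower in 5 of 5 embryos, quasi-likelihood test of edgeR, Benjamini-Hochberg adjusted p = 0.000437).

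Of 11 partner genes of the calcitonin receptor family, 5 were tested, 2 called lower and 0 higher, with a median log2 fold change of -1.12. Ramp3, a coreceptor that also makes Calcrl respond to adrenomedullin, fell from 5.90 ± 1.15 CPM (SD, n = 5) to 0.308 ± 0.141 CPM (SD, n = 5), with 1 to 7 counts in the GPI libraries; its log2 fold change was -4.19 (lower in 5 of 5 embryos, quasi-likelihood test of edgeR, Benjamini-Hochberg adjusted p = 8.57e-07), and it overlaps Gm11978 on the other strand. Per kilobase, Ramp2 and Ramp3 stood at 12.6 and 4.42 CPM per kb with vehicle and at 7.0 and 0.231 with GPI. Ackr3, which scavenges adrenomedullin and CXCL12, fell by 1.12 on the log2 scale, in 5 of 5 embryos. Ramp1, whose product makes the receptor bind calcitonin gene-related peptide, was left out by the filter, at 2 to 21 counts per library, as were Calcr, Adm2, Calca and Calcb, and Iapp was at 0 in every library.

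Adrenomedullin itself, Adm, varied widely: 65.1, 118, 58.2, 60.9 and 66.4 CPM with vehicle in M1 to M5, and 73.7, 24.6, 6.47, 12.2 and 21.7 CPM with GPI. It was lower with GPI in 4 of 5 embryos and higher in M1. The log2 fold change of -1.79 missed the threshold (quasi-likelihood test of edgeR, Benjamini-Hochberg adjusted p = 0.0985), while DESeq2 (adjusted p = 0.00197) and limma-voom (adjusted p = 0.00182) called it, as did edgeR without M1 (log2 fold change -2.31, adjusted p = 1.13e-05). Pam, the enzyme that amidates adrenomedullin, was not called (log2 fold change 0.23, Benjamini-Hochberg adjusted p = 0.202, quasi-likelihood test of edgeR) except without M2 (log2 fold change 0.37, adjusted p = 0.0117); it overlaps B230216N24Rik.

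**Figure D2:**
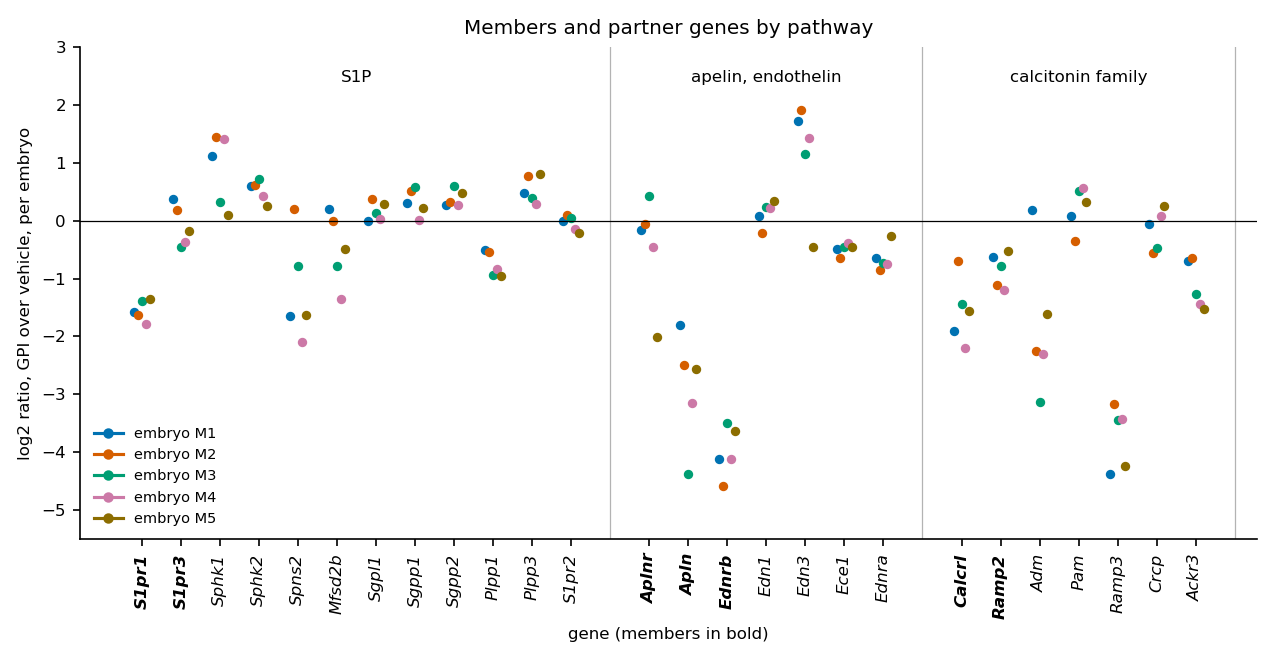
Log2 ratio of GPI over vehicle in each of 5 embryos, from scaled counts with a prior count of 2, for the members of 3 signaling pathways (bold) and every tested partner gene. Ednrb lies between -4.58 and -3.49 while its paralog Ednra lies closer to 0, and S1pr3 and S1pr2 scatter around 0 while S1pr1 lies between -1.78 and -1.35.

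Adgrl4, also called ELTD1, is an adhesion receptor of endothelial cells with a part in sprouting (Entrez Gene 170757, chromosome 3 from 151437882 to 151545081). It was at 15, 24.2, 21.2, 23.7 and 17.5 CPM with vehicle in M1 to M5 and at 0.816, 2.5, 1.77, 1.19 and 2.30 CPM with GPI. The groups were far apart; the lowest GPI library, M1, held 9 counts. A mean of 20.3 ± 3.98 CPM (SD, n = 5) became 1.72 ± 0.713 CPM (SD, n = 5), a log2 fold change of -3.58 ± 0.21 (± standard error; lower in 5 of 5 embryos, quasi-likelihood test of edgeR, Benjamini-Hochberg adjusted p = 1.23e-08).

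Adgrf5, also called GPR116, is an adhesion receptor of endothelium and of alveolar epithelium, where it restrains surfactant (Entrez Gene 224792, chromosome 17 from 43389466 to 43459557). It stood at 251, 318, 213, 248 and 221 CPM with vehicle in M1 to M5 and at 16.6, 26.7, 17.6, 11.3 and 22.9 CPM with GPI. M2 was the highest library in both groups, and the groups did not overlap. The means of 250 ± 41.3 CPM (SD, n = 5) and 19.0 ± 5.95 CPM (SD, n = 5) gave a log2 fold change of -3.75 with a standard error of 0.15, with 7.45% remaining (lower in 5 of 5 embryos, quasi-likelihood test of edgeR, Benjamini-Hochberg adjusted p = 3.2e-08).

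With GPI, 7 of the 9 genes were called lower and 0 higher: S1pr1, Apln, Ednrb, Calcrl, Ramp2, Adgrl4 and Adgrf5. The 9 genes were chosen with earlier results of these data known, so this count describes them and is not a test of the set. At an unadjusted p under 0.05 from edgeR's quasi-likelihood test the members numbered 7 lower and 0 higher as well. In all tested genes, 11.8% (1640) were called lower and 11.2% (1564) higher. With libraries scaled by total counts alone these were 1961 and 1243, and without M3 they were 1337 and 991. In both settings the number of called members stayed at 7 lower and 0 higher. At an unadjusted p under 0.05, 4732 genes differed. The median log2 fold change, GPI over vehicle, was -1.56 in the 9 genes and 0.02 in all tested genes. In the same 7 genes all 5 GPI libraries lay below all 5 vehicle libraries, a pattern that 9.04% of tested genes had in this direction and 7.07% in the other.

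Among 24 other adhesion receptors, 16 were tested, 3 called lower and 6 higher, with a median log2 fold change of 0.13, against -3.58 and -3.75 for Adgrl4 and Adgrf5. The 3 with the smallest p were Adgrl1, a latrophilin of the same subfamily as Adgrl4 (0.80), Adgra3 (0.73) and Adgre5, the leukocyte receptor CD97 (-1.41), each value a log2 fold change of a called gene. Adgre5 overlaps Ddx39a on the other strand. The most abundant of these receptors with vehicle, Adgrl2, was not called, at 279 ± 17.9 CPM (SD, n = 5) with vehicle and 299 ± 14.6 CPM (SD, n = 5) with GPI.

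Because most members fell together, their promoters were searched for shared letters. RefSeq promoters (GRCm38.p6) were found for 6 of the 9 genes, 7 promoters in all since Adgrf5 has 2; S1pr1, Aplnr and Ramp2 had no entry. The starts of the Ednrb entry and of 1 of the 2 Adgrf5 entries, the one not shown, lie away from the 5′ end of the gene in the count table, and that of Apln is 1 base from it. The bases after the start of S1pr3 were found in no GENCODE M21 transcript of the gene. Both strands were searched for 4 motifs of factors active in endothelium: the ETS motif searched was CCGGAAG, the SOX motif was spelled AACAAT, the motif of FOX factors was GTAAACA and that of GATA factors AGATAAG. Of all 32851 promoter windows, from 250 bases before to 50 after the start, 8.86%, 10.7%, 3.65% and 3.04% held them. Among the 7 promoters there was 1 match, a SOX motif 221 bases before the start of Calcrl, which fell with GPI. The 250 bases before the start are shown for Calcrl (chr2:84425267-84425516, minus strand), with the SOX match in capitals, and for the 2 adhesion receptors, which both fell to below 10% of their level, Adgrl4 (chr3:151437632-151437881, plus strand) and Adgrf5 (chr17:43389216-43389465, plus strand), in which none of the 4 motifs was found.
Calcrl: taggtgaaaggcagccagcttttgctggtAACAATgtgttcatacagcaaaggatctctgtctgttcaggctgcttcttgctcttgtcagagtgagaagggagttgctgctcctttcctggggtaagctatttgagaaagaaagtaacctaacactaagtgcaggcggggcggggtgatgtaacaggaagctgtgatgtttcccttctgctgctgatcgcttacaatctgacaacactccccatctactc
Adgrl4: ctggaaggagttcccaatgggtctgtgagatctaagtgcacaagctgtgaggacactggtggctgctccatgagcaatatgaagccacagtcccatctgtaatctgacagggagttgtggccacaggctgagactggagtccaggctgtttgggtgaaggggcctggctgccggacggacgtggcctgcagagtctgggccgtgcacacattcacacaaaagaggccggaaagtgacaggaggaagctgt
Adgrf5: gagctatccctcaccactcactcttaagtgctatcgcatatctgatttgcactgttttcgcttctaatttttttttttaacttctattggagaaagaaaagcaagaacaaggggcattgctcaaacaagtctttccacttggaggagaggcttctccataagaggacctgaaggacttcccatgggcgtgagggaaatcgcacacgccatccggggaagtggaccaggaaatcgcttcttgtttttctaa
Their G+C contents were 48.4%, 56.8% and 44.8%, beside a median of 52.4% in all promoters. A match is a description of letters and not of binding.

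Per kilobase of transcript, the vehicle libraries placed Adgrf5 first at 29.3 ± 4.84 CPM per kb (SD, n = 5), beyond the spread of the next gene. S1pr1 at 18.9, Calcrl at 13.9, Ednrb at 13.3 and Ramp2 at 12.6 CPM per kb followed, each within the SDs of its neighbour in that order. S1pr3 at 6.54, Apln at 6.45 and Adgrl4 at 4.94 CPM per kb formed a lower group, again each within the SDs of its neighbour. Aplnr came last at 0.607 ± 0.5 CPM per kb (SD, n = 5). These SDs are spreads between libraries, and the order of genes within single libraries was not compared. With GPI the order changed. Ramp2 at 7.0, S1pr1 at 6.42, S1pr3 at 6.17 and Calcrl at 4.71 CPM per kb led, each within the SDs of its neighbour in that order, whereas Adgrf5 stood at 2.23 and Ednrb at 0.797 CPM per kb.

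**Figure D3:**
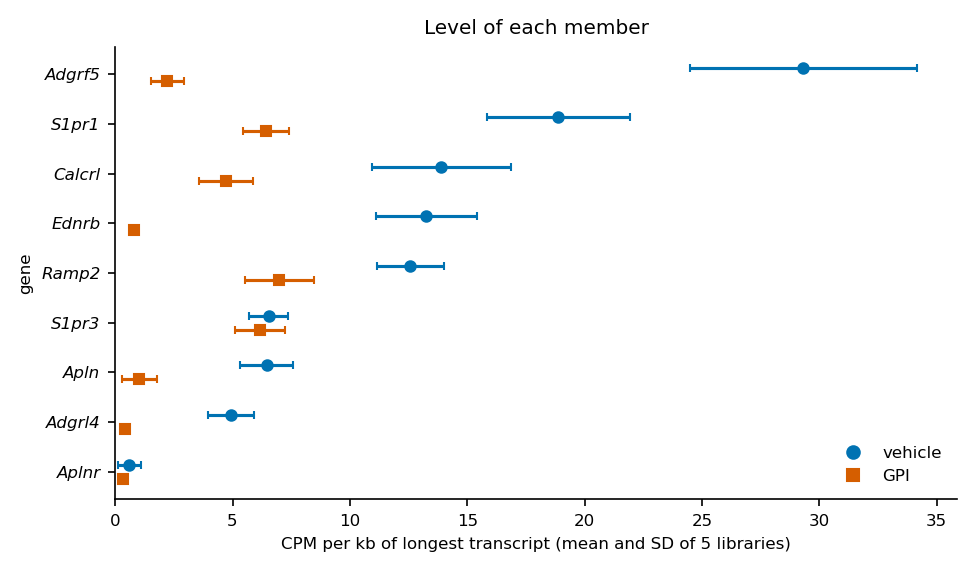
Level of each gene in CPM per kb of its longest GENCODE M21 transcript, as mean and SD of 5 libraries, with vehicle as circles and GPI as squares on a linear axis from 0. Adgrf5 moves from 29.3 to 2.23 and S1pr3 from 6.54 to 6.17 CPM per kb.

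Endothelial markers were lower too. Of 20 markers outside the 9 genes, 20 were called lower, with a median log2 fold change of -3.04 and a range from -5.18 for Flt1 to -1.70 for Eng; Cdh5 (-3.63), the most abundant with vehicle, and Cd34 (-3.49) were the others with the smallest p, and Kdr was the most abundant with GPI. Cdh5 overlaps Gm29682, Cd34 overlaps Gm16897 and Eng overlaps Fpgs, each on the other strand. Their summed level was 1026, 1054, 1006, 1136 and 1046 CPM with vehicle in M1 to M5 and 134, 158, 106, 83.7 and 102 CPM with GPI. None of the defining markers Pecam1, Cdh5 and Kdr was at 0 in any library, the lowest count being 53 for Pecam1. The log2 fold changes of Ednrb, Adgrf5, Adgrl4 and Apln lay inside the range of the single markers and those of S1pr1, Calcrl, Ramp2, Aplnr and S1pr3 above it.

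To set the members beside these markers, their log2 ratio in each embryo was compared with that of the geometric mean of the 20 markers. Ednrb lay below the markers in 5 of 5 embryos, by -1.41 in M1, -1.90 in M2, -0.44 in M3, -0.47 in M4 and -0.30 in M5. Adgrf5 lay below them in 4 of 5 embryos, by -1.21 to -0.54, and not in M5 (0.07). Adgrl4 was below in 4 of 5, from -1.26 to -0.41, and above in M5 (0.49), while Apln was above in 4 of 5, from 0.17 to 0.90, and below in M3 (-1.33). In 5 of 5 embryos S1pr1 (1.04 to 1.99), Calcrl (0.79 to 1.98), Ramp2 (1.56 to 2.82), Aplnr (1.32 to 3.47) and S1pr3 (2.60 to 3.28) were above the markers on this log2 scale.

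A test of these differences by edgeR, with the marker mean as a fixed scale of each library, counted 2 members below and 5 above, where 0.466% (65) of tested genes were below and 98% (13668) above. Its calls are not used: the spread of the marker mean between embryos enters every gene alike, and the test took 55764 degrees of freedom (median over genes) against 15.2 in the test of GPI against vehicle, so that its p values do not rest on 5 embryos. The differences of the members from the markers are therefore given without a p. Their size depended on the reference for every member, as given at the end.

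Of 18 other tested receptors known from vessels, 11 were called lower and 0 higher (quasi-likelihood test of edgeR), with a median log2 fold change of -0.65; Cxcr4, the chemokine receptor of tip cells (-2.67), F2r, a thrombin receptor and the most abundant (-0.98), and Fzd4, a Norrin receptor (-1.08), had the smallest p. Among 23 G proteins, arrestins, receptor kinases and RGS proteins through which the receptors signal, 9 were called lower and 0 higher, with a median of -0.29. The lowest log2 fold change in this list, -4.32, belongs to a gene that is also in the list of mural cell markers given below. It is the lowest there too, so the lists are not independent. Gnai2, the Gi subunit that S1pr1 uses (-0.87), Arrb1, an arrestin (-1.22), and Grk3, a receptor kinase (-1.08), had the smallest p, each value a log2 fold change; Gnas, the Gs subunit through which Calcrl signals, was the most abundant, overlaps Gnasas1 on the other strand and was not called, at 662 ± 34.4 CPM (SD, n = 5) with vehicle and 662 ± 48.4 CPM (SD, n = 5) with GPI.

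**Figure D4:**
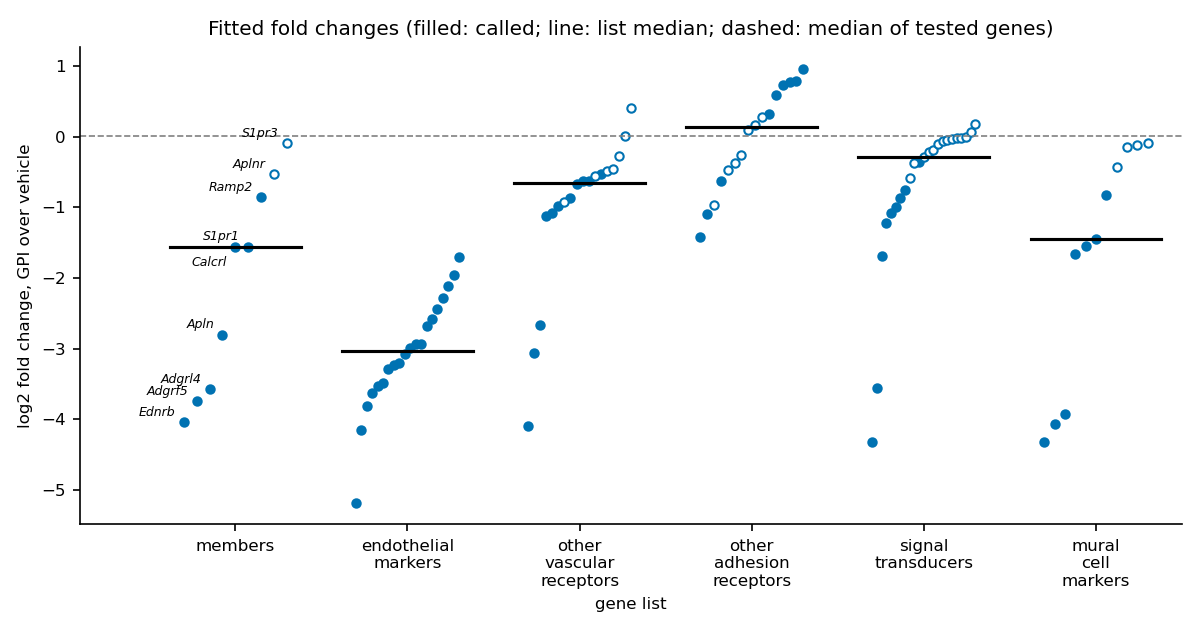
Log2 fold change, GPI over vehicle, of the 9 members and of 5 gene lists, 1 point per tested gene, filled where called by edgeR. Black lines are list medians (-1.56 for the members and -3.04 for endothelial markers), and the dashed line is the median of all tested genes, 0.02.

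Several of the 9 genes are also expressed outside endothelium, and the markers of other cell types moved as follows; their part in the results was not tested. Wherever a list below or above has 0 called in a direction by edgeR's quasi-likelihood test, it also has 0 at an unadjusted p under 0.05. Of 11 tested mural cell markers, 7 were called lower and 0 higher, with a median log2 fold change of -1.44, the smallest p belonging to Abcc9 (-3.93), Kcnj8 (-4.07) and Mcam (-1.66). Abcc9 was the most abundant with vehicle and Acta2 with GPI; Abcc9 overlaps 5330439B14Rik on the other strand. Their summed level was 939, 1029, 1014, 987 and 930 CPM with vehicle in M1 to M5 and 326, 299, 298, 245 and 295 CPM with GPI. Of 4 lymphatic endothelial markers, Flt4 was called lower (-3.22) and Prox1 (1.01) and Pdpn (0.42), which other cells of the gonad may express, higher, with a sum of 104 to 124 CPM with vehicle and 71.8 to 79.4 CPM with GPI and with Flt4 the most abundant with vehicle and Pdpn with GPI. At an unadjusted p under 0.05 from edgeR's quasi-likelihood test, 2 of the 4 were lower and 2 higher. The median log2 fold change was -0.73.

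Blood cell markers were counted too. Of 9 tested macrophage markers, 8 were called lower and 0 higher (median log2 fold change -1.91, summed level 57.2 to 85.4 CPM with vehicle and 17.1 to 36.0 CPM with GPI, Ptprc the most abundant with vehicle and Cd68 with GPI). Of 10 erythroid markers, 7 were called lower and 0 higher (median -1.54, summed level 171 to 430 CPM with vehicle and 78.0 to 205 CPM with GPI, Hbb-y the most abundant; globin genes are near-identical copies whose counts are uncertain). Of 2 tested megakaryocyte markers, Pf4 was called lower and Itga2b was not called (median -1.25, summed level 1.90 to 11.5 CPM with vehicle and 1.16 to 2.30 CPM with GPI, Pf4 the most abundant with vehicle and Itga2b with GPI).

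Markers of the cells that make up the rest of the gonad went in different directions. Of 9 Sertoli markers, 0 were called lower and 7 higher (median log2 fold change 0.59, summed level 292 to 480 CPM with vehicle and 341 to 829 CPM with GPI, Aard the most abundant), and none of Sox9, Amh and Dhh was at 0 in any library. Of 5 tested fetal Leydig markers, 0 were called lower and 5 higher (median 1.75, summed level 105 to 432 CPM with vehicle and 790 to 1470 CPM with GPI, Hsd3b1 the most abundant with vehicle and Cyp11a1 with GPI). Of 6 interstitial progenitor markers, 2 were called lower and 2 higher (median -0.10, summed level 1311 to 1479 CPM with vehicle and 1347 to 1636 CPM with GPI, Pdgfra the most abundant). Of 6 tested germ cell markers, 5 were called lower and 0 higher (median -4.76, summed level 122 to 231 CPM with vehicle and 57.6 to 77.6 CPM with GPI, Kit, which other cells express too, the most abundant). Of 4 tested markers of coelomic and mesonephric epithelium, 0 were called (median -0.16, summed level 39.1 to 96.1 CPM with vehicle and 49.0 to 68.8 CPM with GPI, Upk3b the most abundant).

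**Figure D5:**
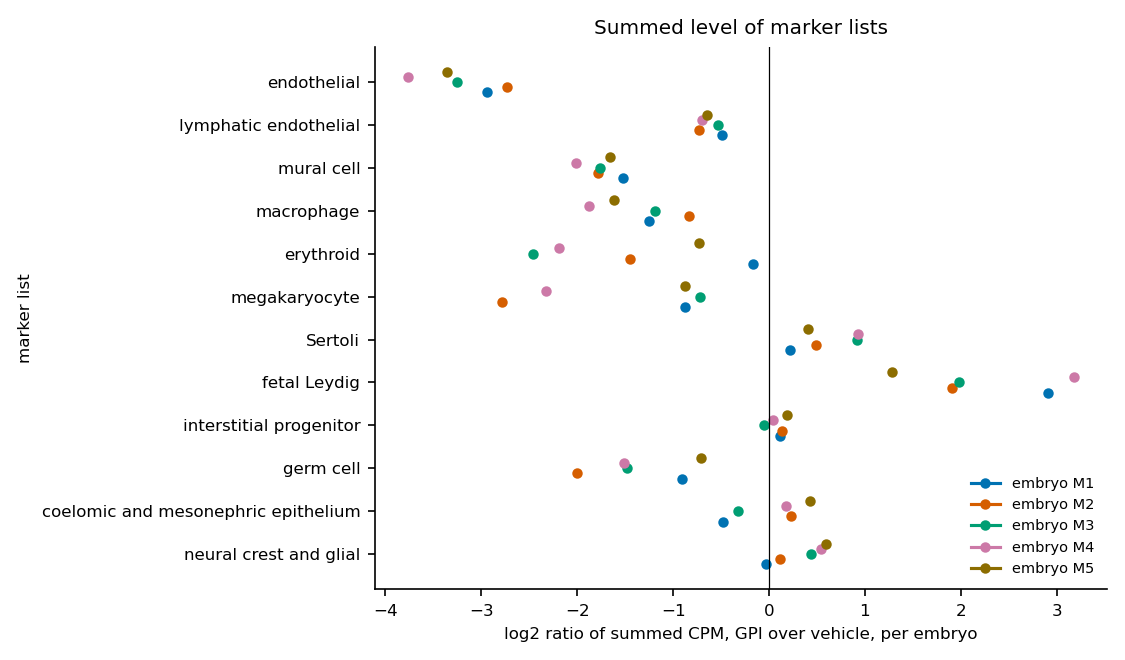
Log2 ratio of GPI over vehicle of the summed CPM of each marker list, 1 point per embryo. The endothelial sums lie between -3.76 and -2.74 and the mural sums between -2.01 and -1.53.

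Across the 10 libraries, log2 CPM of the 7 called genes correlated in all 21 pairs, with Pearson r from 0.786 to 0.988. The libraries form 2 treatment groups, which sets most of such an r; with each treatment's mean removed, the median r of the pairs was 0.294, with a range from -0.414 for Apln with Calcrl to 0.795 for S1pr1 with Adgrl4. Outside the members, among 11098 genes averaging 50 counts or more, the 8 whose log2 CPM was most like the mean of the 9 standardized members were Vash1, Bcl6b, Cav2, Gimap1, Fxyd5, Ets1, Cxcr4 and Necab1, with r from 0.993 to 0.996 over the 10 libraries and from 0.459 to 0.817 within treatments. For single members, the gene most like S1pr1 was Ablim1 (r = 0.993, within treatments 0.886) and for Ednrb Lama4 (0.999, 0.858). For Adgrl4 it was Cd34 (0.995, 0.901), for Adgrf5 Cdh5 (0.997, 0.897) and for Calcrl Eml1 (0.983, 0.86). For Apln it was Atp2b4 (0.981, 0.884) and for Ramp2 Ngfr (0.964, 0.831). For the members that were not called it was Tmem263 with S1pr3 (0.953, 0.95) and Eif2ak3 with Aplnr (0.872, 0.851). These are descriptions over few libraries that share 5 embryos.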

How the data were processed

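RNA of 10 cultured testes was analysed from the raw count of read pairs per gene that the authors deposited: per the study's methods they mapped reads to mm10 with STAR and counted them with featureCounts (Subread 1.5.0-p1), without regard to strand, on RefSeq gene models. Members and lists were chosen with earlier results of these data known. Genes were filtered with edgeR's filterByExpr (minimum count 10, minimum total 15), scaled by TMM and tested with edgeR's quasi-likelihood test (robust) with embryo and treatment in the design and an FDR of 0.05; a standard error is |log2 fold change| over the root of the F statistic. Pairing comes from the design, since both gonads are from the same embryo; deviations from treatment means correlated at -0.04 to 0.16 within embryos (mean 0.06) and -0.01 between. No library duplicated another: between libraries of a treatment, chi-square over its degrees of freedom was 6.42 to 27.8. Precision was taken from the spread between embryos, which edgeR moderates with information from all tested genes (median of 15.2 degrees of freedom). The exception is the test against the endothelial reference, whose calls are not used. The endothelial reference is the geometric mean of TMM-scaled counts plus 1. Correlations used log2 of CPM plus 1.

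Genes named were every member; every tested ligand, enzyme, coreceptor or receptor in the lists for sphingosine 1-phosphate, apelin and endothelin, and the calcitonin family; the 3 genes with the smallest p and the 3 with the highest level of each other list; and the 8 genes most like the mean of the members and the 3 most like each. Not all of these are printed. The defining markers Pecam1, Kdr, Sox9, Amh and Dhh were named for their lowest counts, and Eng was named after its value was seen, as an end of a range. Alternatives were no replicate block, DESeq2, limma-voom, DESeq2 size factors, total counts, other filters, other endothelial references, a shorter promoter window and leaving out each embryo. The procedure was tested on simulated data. Software: edgeR 4.0.16, DESeq2 1.42.0 and limma 3.58.1 under R 4.3.3, and Python 3.11.15 with pandas 2.3.3, numpy 2.4.6 and matplotlib 3.10.9.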

Additional observations from a re-analysis of the deposited data

Results flagged for a closer look

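In 80 groups of 5 libraries (members, tested partner genes and marker sums, each by treatment), 8 had a library far from the others; chance alone sets about 1 in 20 groups apart. Aplnr was at 5.496 CPM in the vehicle library of M5 and at 0.996 to 1.94 CPM in the other 4. In the same library Edn3 was at 8.398 CPM, beside 2.61 to 3.89 CPM, and Ramp3 at 7.904 CPM, beside 5.12 to 5.79 CPM. The vehicle library of M2 had 117.8 CPM of Adm, beside 58.2 to 66.4 CPM, 29.89 CPM of Edn1, beside 21.3 to 23.8 CPM, and 92.17 CPM of Pam, beside 69.4 to 75.3 CPM. With GPI, Adm was at 73.66 CPM in M1 and at 6.47 to 24.6 CPM in the others, and Spns2 at 1.248 CPM in M2 and at 0.426 to 0.635 CPM in the others.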

How the results depend on the processing

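The number of members called lower was 7 in the paired fit and 7 with no replicate block, and 0 were called higher in either. It was 7 with DESeq2, limma-voom, DESeq2 size factors, total counts and no filter, and without each embryo in turn. With at least 10 counts required in every library it was 5, since Apln and Adgrl4 were then not tested. All genes called numbered 3071 with no replicate block, 2813 to 3360 under the other settings and 2328 to 3113 without single embryos. Members kept the sign of the log2 fold change under all 12 alternatives, 11 for Apln and Adgrl4; S1pr2, not called, had -0.04, -0.0835 without M3 and 0.00033 without M5. Partner genes called numbered 10, 11 with no replicate block and 7 to 10 without single embryos. The test against the endothelial markers, whose calls are not used, counted 7 members with other references and with no replicate block. Without single embryos it counted 7 to 8. The members counted were not always the same. With the 3 defining markers as the reference, Adgrf5 left the count and Apln entered it. The log2 difference was then -0.34 for Adgrf5 (-0.68 in the main fit), -0.20 for Adgrl4 (-0.53), -0.63 for Ednrb (-0.97) and 0.55 for Apln (0.20). It was 1.87 for S1pr1 (1.53 in the main fit), 1.86 for Calcrl (1.52) and 2.56 for Ramp2 (2.22). Aplnr had 2.89 (2.55) and S1pr3 3.33 (2.99). With the main reference and without M1, the log2 difference of Apln was 0.0033. Promoter matches numbered 1 in both windows. The block changed the call of Spns2 (log2 fold change -1.33) and of no other member or partner gene. Depth limits Aplnr, Ramp3, Spns2 and the GPI values of Apln and Adgrl4, which rest on few counts.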
